A study of Mus musculus with 2 samples.

Results

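Goblet cells and Paneth cells are the mucus-making and antimicrobial secretory cells of the intestinal epithelium. Here they were taken as the cell barcodes of a droplet single-cell RNA-seq experiment that held at least 500 detected genes, at least 3% of their unique molecular identifiers (UMIs, each a counted RNA molecule) in Tff3 plus Spink4, and at least 2 UMIs in Muc2 plus Fcgbp. The rule gave 158 secretory barcodes out of 2314 with at least 500 genes, and out of 2492 deposited barcodes in all. Of these, 61 came from one embryo and 97 from the other.

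The study dissociated the intestines of 2 mouse embryos of the C57BL/6 background at the embryonic stage E18.5, shortly before birth, and sequenced 1 library from each. One embryo was Mlkl -/-, called Mlkl-null below. The other was Casp8 C362A/C362A Mlkl -/-, called Casp8-mutant below, so that both embryos lacked Mlkl and differed by the labels in Casp8, with a cysteine-to-alanine change in the caspase active site on both alleles. The protocol text speaks of whole intestine and the source label of small intestine, so the region sampled is not settled by the labels. With 1 embryo per genotype there was no replicate and no test. Every interval given is a 95% exact interval of counting error only, and a difference between the libraries cannot be told apart from a difference between any 2 embryos. The members' Xist count was 1 UMI in Mlkl-null and 714 UMIs in Casp8-mutant, and Ddx3y was 21 and 1, so sex and genotype cannot be told apart either.

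Goblet cells fill the lumen with gel-forming mucins, chiefly Muc2, together with the trefoil peptide Tff3 and mucus proteins such as Fcgbp, Clca1 and Zg16, and the disulfide isomerase Agr2 is needed to fold Muc2 in the endoplasmic reticulum. Paneth cells sit at the crypt base and store alpha-defensins, lysozyme and other antimicrobial proteins in granules; in mice they mature after birth, and defensin transcripts are known in the secretory lineage before that. Both lineages depend on the transcription factor Atoh1, and Spdef promotes their maturation. Caspase-8 cuts the necroptosis kinases and starts apoptosis, and Mlkl is the protein that breaks the membrane in necroptosis.

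The libraries differed in depth and in RNA from other cells before any selection. The median barcode held 3654 UMIs in Mlkl-null and 1797.5 in Casp8-mutant, and haemoglobin took 0.930% and 1.55% of the UMIs in barcodes with at least 500 genes. The secretory barcodes held 359397 and 301207 UMIs in all, with a median of 5341 (2272 to 13427) and 2678 (1032 to 10320). Their haemoglobin share was 0.263% and 1.07%. RNA released by other cells was followed through barcodes with at least 20% haemoglobin, 57 in Mlkl-null and 144 in Casp8-mutant, whose remaining 37684 and 62638 UMIs serve below as the reference for genes that red cells should lack. These haemoglobin barcodes can hold red cells, whose own RNA was not separated from the released RNA (free RNA below). The libraries shared 2 barcode sequences, none of them secretory.

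**Figure D1:**
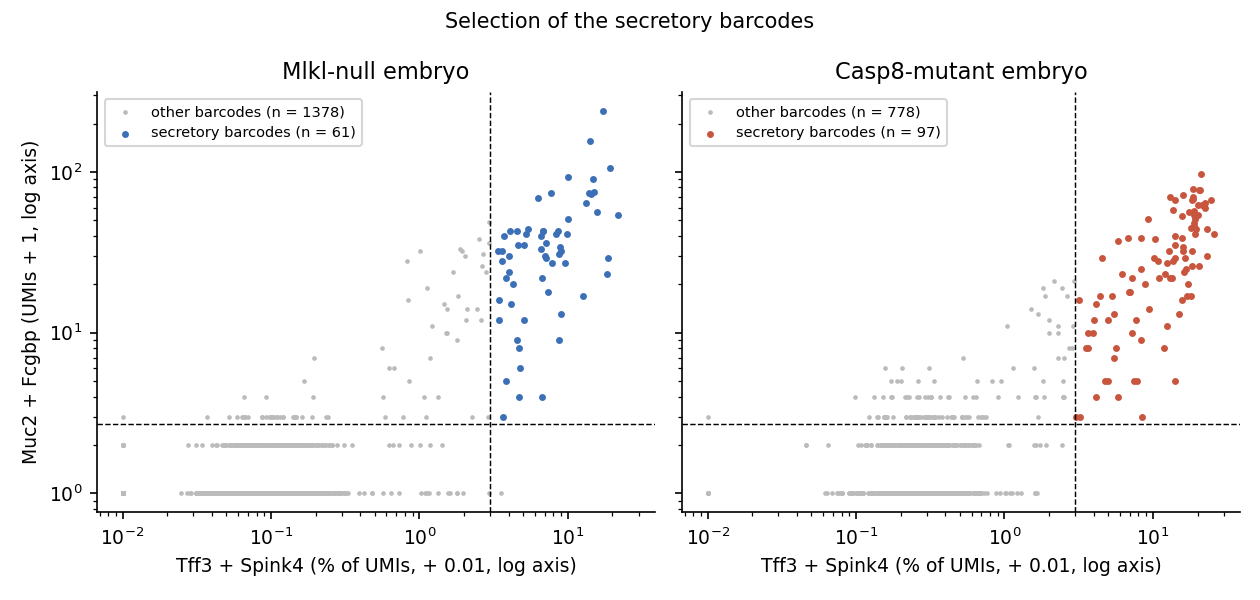
Selection of secretory barcodes: each point is 1 barcode with at least 500 genes, with the share of its UMIs in Tff3 plus Spink4 on the horizontal axis and its Muc2 plus Fcgbp UMIs plus 1 on the log vertical axis; dashed lines are the thresholds of 3% and 2 UMIs. Secretory barcodes reach from 3.40% to 21.7% in Mlkl-null and from 3.02% to 26.0% in Casp8-mutant.

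The 4 genes of the rule chose the members, so their levels are a description. The share of UMIs in Tff3 plus Spink4 had a median of 6.81% in Mlkl-null members and 13.5% in Casp8-mutant members. At the threshold, 9 and 7 members lay between 3% and 4%, and 14 and 16 barcodes left out lay between 2% and 3%, up to 2.94% and 2.95%. In Casp8-mutant, 3 barcodes met every other condition but held under 500 genes, and in Mlkl-null none did. The plot of the selection shows both clouds thinning through the threshold without a gap.

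Secretory barcodes made up 4.24% of Mlkl-null barcodes with at least 500 genes (61 of 1439, Clopper-Pearson interval 3.26% to 5.41%) and 11.1% of Casp8-mutant ones (97 of 875, 9.08% to 13.4%). Among epithelial barcodes alone, defined by keratin and junction genes, the shares were 5.34% (61 of 1143) and 17.4% (97 of 556), a ratio of 3.27. The share of cells lost in dissociation was not measured, so a larger share of secretory cells and a loss of other epithelial cells cannot be told apart. The rule itself rests on a share of UMIs in Tff3, which was also higher in Casp8-mutant barcodes outside the members, at 3259 CPM (UMIs per 1000000 UMIs of the set) in other epithelial barcodes against 1409 in Mlkl-null.

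The label was checked against markers that the rule did not use. Agr2, the mucin-folding isomerase, had at least 1 UMI in 61 of 61 and 97 of 97 members, at 8698 and 10471 CPM against 307 and 612 in other epithelial barcodes. Clca1, a metalloprotease of the mucus layer, stood at 927 and 1882 CPM against 19.1 and 64.9 in other epithelial barcodes and 26.5 and 112 in haemoglobin barcodes. It had a UMI in 47 of 61 and 89 of 97 members, or 25 and 78 after thinning each member to 1000 UMIs, and in 6.56% and 17.4% of other epithelial barcodes, whose median depth was 3947.5 and 2432 UMIs. Spdef stood at 164 and 159 CPM against 6.78 and 13.5 in other epithelial barcodes, with a UMI in 11 of 61 and 15 of 97 members after thinning. Atoh1 stood at 150.3 and 69.7 CPM against 5.96 and 4.90, with a UMI in 7 and 6 members after thinning, so at equal depth most members showed no UMI of either factor. Guca2a, which encodes the peptide guanylin, stood at 5643 and 9774 CPM against 1182 and 1341. Markers of other lineages differed. The 6 tuft cell genes had 0 and 7 UMIs over all members, the 4 neuron genes 6 and 5, and the 5 fibroblast genes 13 and 13. The 6 enterocyte markers had 3991 and 1862 UMIs (11105 and 6182 CPM, against 41747 and 9406 in other epithelial barcodes), the 12 enteroendocrine markers 1455 and 1904, and the 5 erythroid markers 934 and 3154. The 6 granulocyte markers had 6 and 936 UMIs, with at least 1 in 97 of 97 Casp8-mutant members, and the 6 myeloid markers 46 and 144. Chga plus Chgb, which mark hormone-making enteroendocrine cells, reached 3 UMIs in 0 of 61 and 2 of 97 members. Sct, the secretin gene, was present in 61 of 61 and 96 of 97 members at 2732 and 5564 CPM, below the 25963 and 27568 CPM of hormone-cell barcodes and above the 1168 and 1932 CPM of haemoglobin barcodes.

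Alpha-defensin genes, which define Paneth cells, led the list of genes that set the members apart from other epithelium. All 22 annotated genes of the family had a UMI in both libraries. Defa25, Defa17, Defa28, Defa30, Defa31, Defa3, Defa29 and Defa-ps18 were the 8 genes with the highest ratios of members to other epithelial barcodes in both libraries. Their ratios ran from 87.6 (Defa29) to 271 (Defa-ps18) in Mlkl-null and from 54.2 (Defa-ps18) to 119 (Defa25) in Casp8-mutant, given as a description since the rule chose the members. The family lies in a cluster on chromosome 8 whose copies are nearly identical, so the split of UMIs among its genes is uncertain and the family sum is the safer value. That sum was 7837 UMIs (21806 CPM) in Mlkl-null members and 4623 UMIs (15348 CPM) in Casp8-mutant members, against 274 and 282 CPM in other epithelial barcodes and 372 and 224 CPM in haemoglobin barcodes. Defa24 (chr8:21734494-21735471) took 82.5% and 59.8% of the family's UMIs.

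Defensin RNA was not shared evenly among members. Per member the family sum ran from 0 through a median of 23 to 1846 UMIs in Mlkl-null, and from 0 through 5 to 866 in Casp8-mutant. At least 3 defensin UMIs were found in 42 of 61 Mlkl-null members (68.9%, 55.7% to 80.1%) and 57 of 97 Casp8-mutant members (58.8%, 48.3% to 68.7%). Thinned to 1000 UMIs per member the shares were 59.0% and 47.4%, and their intervals overlap. The background share at 3 UMIs was 0 of 57 and 0 of 144 haemoglobin barcodes, which allows up to 6.27% and 2.53%, and 2.13% and 3.27% of other epithelial barcodes. Every member held Muc2 or Fcgbp UMIs by the rule, so defensin-positive members held goblet mucus genes and defensin transcripts in the same barcode. Whether they were most of the Casp8-mutant members depended on the setting, since 38.1% of those members held at least 10 defensin UMIs.

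Splitting the members at 3 defensin UMIs showed what else went with defensins. Genes of the selection rule are left out of this split. In Mlkl-null, Rnase1, a secreted ribonuclease, was 4.84-fold higher (2.91 to 9.33) in the 42 defensin-positive members than in the other 19. Mptx1, a mucosal pentraxin, was 3.24-fold higher (2.48 to 4.37). In the same split the goblet genes Agr2 and Clca1 were 1.70-fold (1.58 to 1.83) and 1.62-fold lower (1.29 to 2.03). In Casp8-mutant, Mptx1 was 3.19-fold higher (1.97 to 5.71) in the 57 defensin-positive members, while Agr2 stood at 10623 and 10189 CPM and Clca1 at 1813 and 2011 CPM on the 2 sides. Lyz1, the Paneth cell lysozyme, had all of its 15 UMIs in Mlkl-null and all of its 16 in Casp8-mutant in defensin-positive members. Ang4, an antimicrobial ribonuclease of Paneth and goblet cells, had all of its 27 UMIs in defensin-positive members of Mlkl-null, where 1 member held 19. In Casp8-mutant it was 1.90-fold lower in defensin-positive members (1.49 to 2.43), with 134 UMIs (684 CPM) against 137 (1299.7 CPM). Of those 137 UMIs 1 member held 66 and another 60, so that direction rests on these barcodes. Reg4, a lectin made by goblet and hormone cells, was 1.77-fold higher with defensins in Mlkl-null and 8.99-fold lower (4.95 to 18.97) with them in Casp8-mutant, where 1 member held 28 of its 72 UMIs.

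**Figure D2:**
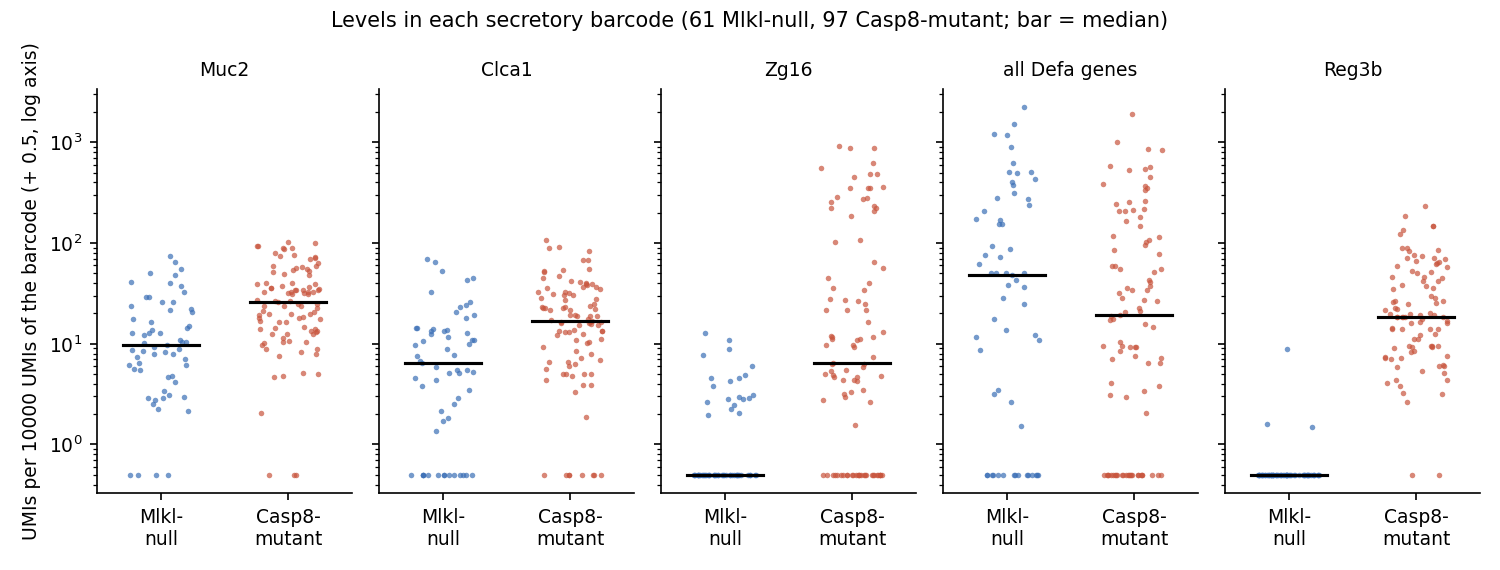
Muc2, Clca1, Zg16, the sum of all Defa genes and Reg3b in each secretory barcode, in UMIs per 10000 UMIs of the barcode (plus 0.5, log axis), with 1 point per barcode and a bar at the median of each library. Zg16 stays at or below 0.12% in the 61 Mlkl-null members and reaches 9.11% in Casp8-mutant members, while the alpha-defensin sum spreads widely in both libraries.

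Zg16 (chr7:127050156-127087328), a lectin-like mucus protein that binds bacterial cell walls, separated the libraries among the goblet genes. Mlkl-null members held 38 Zg16 UMIs in all, with 41 of 61 at 0 and at most 4 in a member. Casp8-mutant members held 2388 UMIs, with 28 of 97 at 0, 34 at 1 to 4, 10 at 5 to 19 and 25 at 20 or more. Those 25 members ran from 24 to 286 UMIs and held 2238 UMIs, or 93.7% of the total, and no member lay between 14 and 24. The levels were 106 and 7928 CPM, a 74.0-fold difference (54.5 to 106). Haemoglobin barcodes of Casp8-mutant held 718 CPM and members under 20 UMIs held 637 CPM. The part of free RNA in those members' Zg16 was not tested. Without the 25 high members the log2 ratio was 2.58 in place of 6.21. In other epithelial barcodes, 1 Mlkl-null barcode and 0 Casp8-mutant barcodes reached 20 UMIs.

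The 25 Zg16-high members, a group chosen after its values were seen, differed from the other 72 Casp8-mutant members in more than Zg16. Genes of the selection rule are left out here too. Clca1 was 2.06-fold higher (1.73 to 2.45) in them. Krt20, a keratin of differentiated epithelium, was 3.20-fold higher (2.15 to 4.75), the tight junction gene Cldn4 2.46-fold (1.95 to 3.09), the cornified-envelope gene Sprr2b 2.60-fold (2.20 to 3.06) and the tryptophan-degrading enzyme Ido1 4.89-fold (2.82 to 8.70). Fabp6, the ileal bile acid carrier, was 8.15-fold lower (3.97 to 24.3), with 6 UMIs in the 25 and 189 in the 72. Reg4 was 4.26-fold lower and the imprinted growth RNA H19 2.79-fold lower. Ribosomal protein genes took 4.76% of UMIs in the high members and 10.1% in the rest, and median depth was 2523 and 2828.5 UMIs. At least 3 defensin UMIs were found in 17 of 25 and 40 of 72, and the family sum stood at 19451 and 14201 CPM. Defa17 was 1.89-fold higher in the high members (1.53 to 2.31), Defa30 1.75-fold (1.40 to 2.17) and Defa24 1.17-fold (1.07 to 1.28). The Paneth genes Ang4 and Mptx1 were 2.27-fold (1.75 to 2.91) and 2.41-fold higher (1.65 to 3.47). Of the 105 Ang4 UMIs in the high members 1 member held 60 and another 20. Of the 166 in the rest 1 member held 66, so the Ang4 ratio rests on few barcodes. The interferon list defined below stood at 8814 and 7370.4 CPM.

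For the comparison between libraries, UMIs were summed per gene over the members of a library and divided by all UMIs of those members. A gene was called higher or lower in Casp8-mutant by size, when the ratio was at least 2-fold and its interval left out 1, among genes with at least 20 UMIs over both libraries. Of 4526 such genes, 352 were higher (7.78%) and 864 lower (19.1%), or 26.9% in all. The median over all 4526 log2 ratios was -0.35, and changes are read against that shift. Scaling by the median of ratios, which sets that median to 0, turned the split to 538 higher and 408 lower. Under the same rule 35.8% of the genes measured in other epithelial barcodes were called, 18.1% higher and 17.7% lower. Of the genes called lower in members, 306 of 864 stood at or above the members' level in Mlkl-null haemoglobin barcodes, and of 346 genes called higher and not of haemoglobin, 111 did so in Casp8-mutant ones. The part of free RNA in the differences was not tested.

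**Figure D3:**
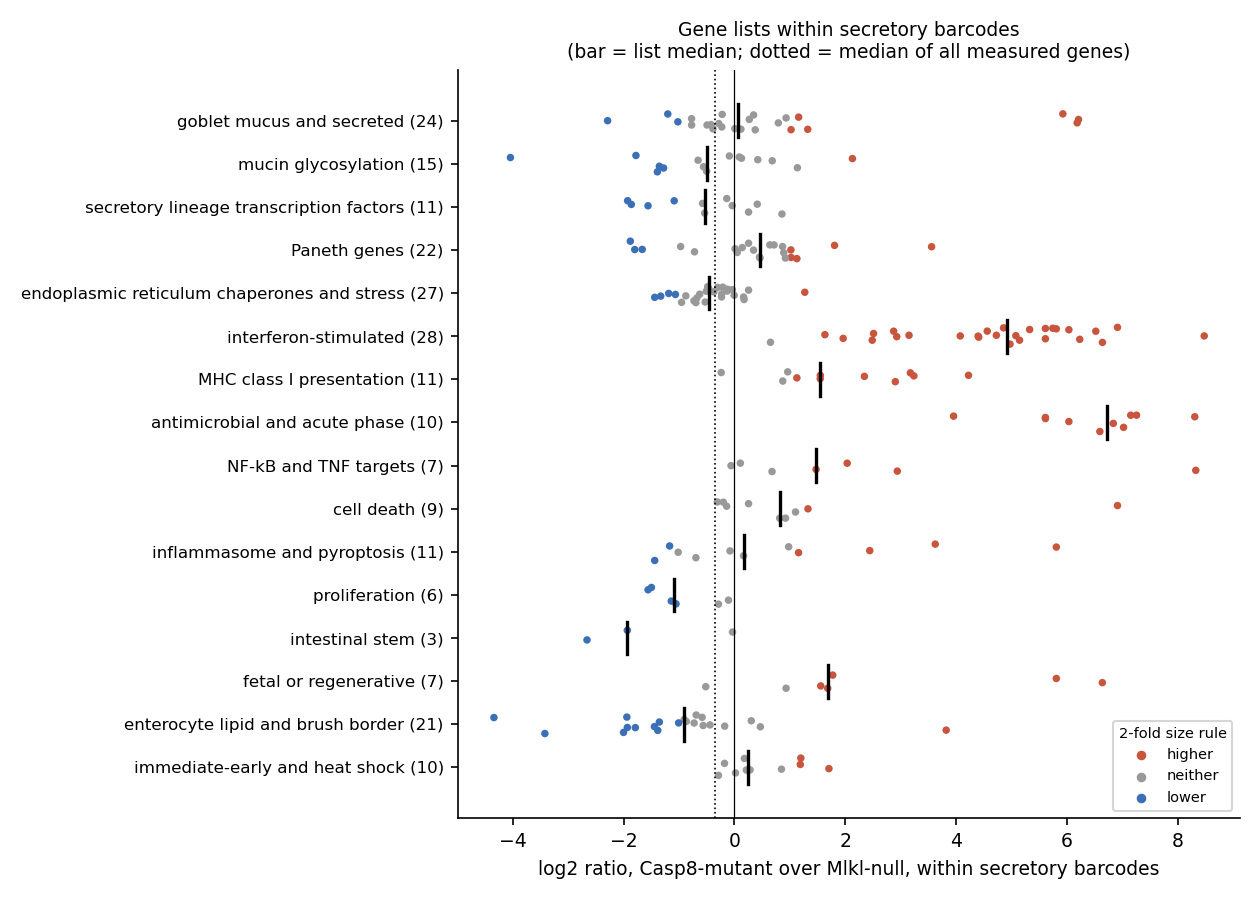
Log2 ratio of Casp8-mutant over Mlkl-null within secretory barcodes for the measured genes of 16 lists, with the number of genes in parentheses, 1 point per gene coloured by the 2-fold size rule, a bar at each list's median and a dotted line at the median of all measured genes (-0.35). Interferon-stimulated genes (median 4.92) and antimicrobial genes (6.72) lie to the right, proliferation genes (-1.10) and enterocyte genes (-0.91) to the left.

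Interferon-stimulated genes, which cells transcribe on interferon signalling to restrict viruses, were higher in Casp8-mutant members almost throughout. Of 28 measured genes 27 were called higher and 0 lower, beside 7.78% higher and 19.1% lower among all genes. The remaining one of the 28, Irf9, had 9 and 12 UMIs. The median log2 ratio was 4.92, or 3.997 with the 7 genes at 0 UMIs in Mlkl-null set at their bound, where a count of 0 is read as 3 counts. In other epithelial barcodes 39 of 41 were higher, beside 18.1% of all genes measured there. Over the list, a Mlkl-null member held 0 to 8 UMIs (median 2) and a Casp8-mutant member 3 to 94 (median 20). Thinned to 1000 UMIs each, 20 of 61 Mlkl-null members (32.8%, 21.3% to 46.0%) and 97 of 97 Casp8-mutant members (96.3% to 100%) held at least 1 UMI of the list, against 54.2% and 100% of other epithelial barcodes.

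Isg15 (chr4:156199424-156200818), a ubiquitin-like modifier, had 1 UMI in 1 Mlkl-null member and 448 UMIs in 82 of 97 Casp8-mutant members, up to 27 in one, a ratio of 357 (95.5 to 21160). Bst2 (chr8:71534255-71537456), which tethers budding virus, had 8 and 206 UMIs, a 29.0-fold difference (15.3 to 72.1), with a UMI in 7 of 61 and 78 of 97 members. Ifit1 (chr19:34640871-34650009), which binds foreign RNA ends, had 11 and 162 UMIs, a 16.9-fold difference (9.56 to 35.9). Irf7, a transcription factor of the interferon response, was 40.2-fold higher (17.2 to 167). Zbp1, a nucleic acid sensor that can start necroptosis through Ripk3, had 0 and 50 UMIs and was at least 19.9-fold higher. These genes were also present in Casp8-mutant haemoglobin barcodes. Isg15 stood there at 4295 CPM against 1487 in members and Irf7 at 862 against 501. Bst2 stood at 655 against 684 and Ifit1 at 415 against 538. Of the 27 genes called higher, 13 were at or above the members' level in those barcodes, 11 between 50% and 100% of it, and 3 (Gbp2, Ifit2 and Oas1a) under 50%. The part of free RNA in the members' interferon signal was not tested, nor whether red cells transcribe these genes themselves.

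Many interferon-stimulated genes carry a binding element for interferon regulatory and STAT factors next to their start, a tandem repeat of GAAA spaced by 2 bases. The 250 bases before the RefSeq start of 3 of these genes are shown because their levels carry the difference described above, and they were picked after their values and matches were seen. Each is written 5′ to 3′ on the gene's strand (build GRCm38.p6), in lower case with each match to the repeat (GAAA, any 2 bases, then GAAA) on either strand in capitals, overlapping matches merged. Isg15 is on the minus strand at chr4:156200819-156201068, Bst2 on the minus strand at chr8:71537473-71537722 and Ifit1 on the plus strand at chr19:34640639-34640888.
Isg15: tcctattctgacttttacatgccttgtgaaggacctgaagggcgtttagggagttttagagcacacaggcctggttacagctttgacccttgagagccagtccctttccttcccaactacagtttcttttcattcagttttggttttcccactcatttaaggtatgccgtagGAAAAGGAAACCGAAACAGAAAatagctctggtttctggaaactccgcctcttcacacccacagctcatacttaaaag
Bst2: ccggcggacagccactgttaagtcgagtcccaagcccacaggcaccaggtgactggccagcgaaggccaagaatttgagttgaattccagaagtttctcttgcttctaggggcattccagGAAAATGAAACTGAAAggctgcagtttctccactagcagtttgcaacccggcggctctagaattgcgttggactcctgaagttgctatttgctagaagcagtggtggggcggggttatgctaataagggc
Ifit1: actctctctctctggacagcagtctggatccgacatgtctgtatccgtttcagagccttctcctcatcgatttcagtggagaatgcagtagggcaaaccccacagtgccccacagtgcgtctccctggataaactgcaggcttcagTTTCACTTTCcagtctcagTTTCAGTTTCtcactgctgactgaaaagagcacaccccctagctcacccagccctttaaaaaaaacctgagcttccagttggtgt
The Isg15 window holds 3 overlapping matches that begin 78, 72 and 66 bases before the start, the Bst2 window 2 that begin at 130 and 124, and the Ifit1 window 2 on the opposite strand at 104 and 85. Of 32851 RefSeq windows of this length 978 held a match (2.98%). Of the 21 measured interferon-list genes with such a window, 11 did (52.4%), of 10 antimicrobial genes 1 did, and of 17 goblet genes 0 did. A match describes the letters and shows no binding, and no match says only that these letters are not in this window.

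All 10 measured antimicrobial and acute phase genes were called higher, beside 7.78% of all genes. Their median log2 ratio was 6.72, or 4.21 with the 5 genes at 0 UMIs in Mlkl-null at their bound. In Casp8-mutant haemoglobin barcodes 6 of the 10 stood at or above the members' level and 2 between 50% and 100% of it. The other 2, Duox2 and Duoxa2, were under 50%. S100a8, S100a9 and Retnlg on this list are also granulocyte markers. Reg3b (chr6:78370657-78373466), a lectin secreted against bacteria, had 9 UMIs in 3 of 61 Mlkl-null members and 1217 UMIs in 95 of 97 Casp8-mutant members, where the median was 4 and the highest 140. That is a 153-fold difference (84.7 to 354). Its close relative Reg3g had 4 and 536 UMIs, 142-fold (62.1 to 589). Within Casp8-mutant, Reg3b was 2.34-fold (2.03 to 2.72) and Reg3g 2.88-fold higher (2.29 to 3.702) in defensin-positive members than in the rest. Reg3b reached 4040.4 CPM in members, 5249 in other epithelial barcodes and 2379 in haemoglobin barcodes, and Reg3g 1779.5, 2353 and 909.99. Duoxa2, the maturation factor of the epithelial hydrogen peroxide oxidase Duox2, had 0 and 54 UMIs and was at least 21.5-fold higher, with 179 CPM in members and 79.8 in haemoglobin barcodes.

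S100a8 and S100a9, the calprotectin subunits that neutrophils carry in bulk, were among the largest differences, but their level did not single out members. S100a8 had 4 and 431 UMIs and S100a9 1 and 398. In Casp8-mutant, S100a8 stood at 1431 CPM in members, 1611 in other epithelial barcodes, 7392 in haemoglobin barcodes and 27574 in 15 granulocyte barcodes. S100a9 stood at 1321, 1532, 7887 and 46144 CPM in the same order. No granulocyte barcode was found in Mlkl-null. All 5 measured granulocyte markers were higher in Casp8-mutant members and all 5 stood at or above the members' level in haemoglobin barcodes, and the list's summed level was 16.7 and 3108 CPM (3545 in other epithelial barcodes of Casp8-mutant). Cxcl2, a neutrophil-attracting chemokine with 0 and 134 UMIs, stood at 445 CPM in members and 1819.98 in haemoglobin barcodes, and Slfn4, an interferon-responsive gene of myeloid cells with 0 and 77 UMIs, at 256 and 287. Those levels were at or below the free-RNA reference, and the part of free RNA in them was not tested.

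The Sprr2 genes and Ly6a were higher in Casp8-mutant members and stood above that reference. Sprr2a3 (chr3:92285417-92291405), one of a cluster of small proline-rich proteins, had 25 UMIs in 14 of 61 Mlkl-null members and 627 UMIs in 81 of 97 Casp8-mutant members, where the median was 4 and the highest 54. The difference was 29.4-fold (20.1 to 46.6), and Casp8-mutant levels were 2082 CPM in members, 699 in other epithelial barcodes and 144 in haemoglobin barcodes. Sprr2b, with 18 and 604 UMIs, was 39.0-fold higher (25.1 to 68.0) and had 0 UMIs in haemoglobin barcodes. Sprr2a1, with 0 and 94 UMIs, was at least 37.4-fold higher. The Sprr2a copies are nearly identical, so reads may be split among them. Ly6a, the Sca-1 surface protein of fetal and regenerating epithelium, had 3 and 292 UMIs, a 99.7-fold difference (39.3 to 566), and stood at 969 CPM in members, 986 in other epithelial barcodes and 447 in haemoglobin barcodes, so its level did not set members apart from other epithelium. Of the 7 measured fetal or regenerative genes 5 were higher (Ly6a, Anxa1, Anxa3, Il1rn and Cd55) and 0 lower. Among all genes 7.78% were higher and 19.1% lower. Krt7 stood at 381 and 266 CPM and Cldn4 at 551 and 1052 CPM.

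The goblet genes divided. By the size rule 6 of 24 measured genes were higher and 3 lower, beside 7.78% higher and 19.1% lower among all genes. The list had a median log2 ratio of 0.06 beside the -0.35 of all genes. Apart from Zg16, the higher ones were Muc2 (486 and 910 UMIs, 2.23-fold, 1.999 to 2.50), Clca1 (2.03-fold, 1.77 to 2.33), the transmembrane mucin Muc3 (0 and 30 UMIs), the antibody transporter Pigr (2.50-fold, 1.34 to 5.06) and Retnlb (0 and 25 UMIs), which encodes a goblet cell antibacterial protein. Muc2 is a gene of the selection rule, so its value is a description. Lower were the chemokine Ccl9 (189 and 32 UMIs, 4.89-fold, 3.39 to 7.44), Reg4 (2.03-fold, 1.54 to 2.72) and Rep15, an effector of a Rab trafficking protein (2.30-fold, 1.53 to 3.63). Ccl9 had a UMI in 43 of 61 Mlkl-null and 22 of 97 Casp8-mutant members. Agr2, Fcgbp, Spink4, Guca2a and Tff3 lay within 2-fold.

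Of 15 measured enzymes that build mucin sugar chains, 5 were lower, 1 higher and 9 neither, beside 19.1% lower and 7.78% higher among all genes. Their median of -0.50 was close to the -0.35 of all genes and ran from -0.83 to -0.02 over the alternative settings. The lower ones were the chain-starting transferases Galnt7 (67 and 16 UMIs, 3.43-fold, 2.01 to 6.49) and Galnt12 (2.56-fold, 1.53 to 4.62), the sialyltransferase St3gal1 (29 and 1 UMIs, a ratio of 16.5, 4.03 to 993), the sialic acid synthesis enzyme Gne and its transporter Slc35a1. B3gnt7 was higher with 4 and 16 UMIs. Among 11 measured transcription factors of the secretory lineage 4 were lower and 0 higher, with a median of -0.54. Sox9, needed for Paneth cells, had 71 and 16 UMIs (3.63-fold lower, 2.14 to 6.86) and Atoh1 had 54 and 21 (2.12-fold lower, 1.28 to 3.76). Hes6 had 54 and 15 and Creb3l4 29 and 6. Spdef, with 59 and 48 UMIs, stood at 164 and 159 CPM.

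Paneth genes gave 5 higher and 3 lower of 22 measured, beside 7.78% higher and 19.1% lower among all genes. Their median was 0.46. Most of the 22 are alpha-defensin genes, whose split of UMIs is uncertain, and Defa17 and Defa25 are among the 5 higher. The alpha-defensin sum was 21806 CPM in Mlkl-null and 15348 CPM in Casp8-mutant members. The sum of the whole list was 24324 and 18399 CPM, so the sums were lower in Casp8-mutant while the median was above 0. Ang4 had 27 UMIs in 5 of 61 Mlkl-null members and 271 UMIs in 31 of 97 Casp8-mutant members, with 1 member at 66. The difference was 11.8-fold (8.05 to 18.51), and haemoglobin barcodes stood at 63.9 CPM against 900 in members. Mmp7, the protease that activates mouse alpha-defensins, was 2.18-fold higher (1.41 to 3.50) and Nupr1, a stress-induced chromatin protein, 3.50-fold (2.90 to 4.26). Defa17 was 2.03-fold higher (1.74 to 2.39) while Defa24, with 6465 and 2764 UMIs, was 1.96-fold lower (1.87 to 2.05). The lower genes were the pentraxins Mptx1 (559 and 127 UMIs, 3.68-fold, 3.04 to 4.51) and Mptx2 (3.48-fold, 2.04 to 6.58) and the surface protein Cd24a.

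Of 27 measured endoplasmic reticulum chaperone and stress genes 4 were lower, 1 higher and 22 neither. Among all genes 19.1% were lower and 7.78% higher, and the list's median of -0.46 was close to the -0.35 of all genes. The chaperone Hsp90b1 was 2.09-fold lower (1.57 to 2.85), as were Pdia5, Sdf2l1 and Ern2, the goblet cell sensor of misfolded protein. Ddit3, a stress-induced transcription factor, was 2.41-fold higher (1.45 to 4.21), with 176 CPM in haemoglobin barcodes against 156 in members.

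Enterocyte genes were lower in Casp8-mutant members, and most of those called lower stood in Mlkl-null members at or below their level in haemoglobin barcodes. The part of free RNA in them was not tested. Of 21 measured lipid and brush border genes 10 were lower, 1 higher and 10 neither, with a median of -0.91. Among all genes 19.1% were lower and 7.78% higher, with a median of -0.35. Fabp1 (chr6:71199827-71205023), the cytosolic fatty acid carrier of enterocytes, had 1148 UMIs in 60 of 61 Mlkl-null members and 47 in 26 of 97 Casp8-mutant members, a 20.3-fold difference (15.3 to 28.0). The difference in other epithelial barcodes was 44.1-fold, and Mlkl-null haemoglobin barcodes stood at 7696 CPM against 3194 in members. All 10 lower genes were higher in other epithelial barcodes of Mlkl-null than in its members, and 7 were at or above the members' level in haemoglobin barcodes. Further genes with lower counts were lactase (Lct, 57 and 4 UMIs), Acaa2 of mitochondrial fat oxidation (108 and 8), the urea cycle enzyme Cps1 (222 and 37), Maob, Reep6 and the desaturase Scd2. Rnase1 had 203 and 23 UMIs and was 7.26-fold lower (4.79 to 11.9), and in Mlkl-null it stood at 565 CPM in members, 95.1 in other epithelial barcodes and 186 in haemoglobin barcodes. Pdcd4, a translation inhibitor, and Gstm1, a glutathione transferase, were 8.52-fold and 8.91-fold lower, and Snord118, a small nucleolar RNA, had 55 and 4 UMIs.

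Fabp6 went against the other enterocyte genes, with 16 UMIs in 11 of 61 and 195 UMIs in 29 of 97 members, a 14.1-fold difference (8.73 to 25.9). A single Casp8-mutant member held 77 of the 195. In other epithelial barcodes it was 3.18-fold higher. Fabp6 is a gene of the distal small intestine, and the gut region of a barcode was not recorded, so a difference in sampled region and one in genotype cannot be told apart.

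MHC class I presentation genes were higher in 8 of 11 measured cases and lower in 0, with a median of 1.55. Beside this list and the next, 7.78% of all genes were higher and 19.1% lower. B2m, the light chain, had a median of 1 UMI (0 to 6) per Mlkl-null and 4 (0 to 19) per Casp8-mutant member and was 7.48-fold higher (5.89 to 9.73), and the heavy chain H2-D1 was 5.08-fold higher (3.91 to 6.77). H2-K1 stood at 301 and 551 CPM. B2m stood at 2107 CPM in Casp8-mutant haemoglobin barcodes against 1570.35 in members, and 4 of the 8 genes were at or above the members' level there. Among NF-kB and TNF targets 4 of 7 were higher (Nfkbia, Cxcl2, Cxcl10 and Ier3), all 4 at or above the members' level in haemoglobin barcodes.

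Of 9 measured cell death genes 2 were higher and 0 lower, beside 7.78% higher and 19.1% lower among all genes. Casp8 itself, whose point mutation leaves its 3′ tags countable, had 14 UMIs in 12 of 61 and 30 UMIs in 23 of 97 members, a 2.51-fold difference (1.31 to 5.22), and Zbp1 was the second. Mlkl had 0 UMIs in the members of both libraries, and Ripk3 had 8 and 13. Cflar, Tnfrsf1a, Bax, Bak1 and Xiap were among those that were neither. Of 11 inflammasome and pyroptosis genes 4 were higher (Casp4, Naip2, Il1b and Il1rn) and 2 lower (Naip5 and Naip6). The lower share was close to the 19.1% of all genes. Il1b and Il1rn stood above the members' level in haemoglobin barcodes, and Casp4, with 4 and 20 UMIs, was at 0 there.

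Proliferation genes were lower in 4 of 6 measured cases and higher in 0, with a median of -1.10. Beside this list and those that follow, 19.1% of all genes were lower and 7.78% higher, with a median of -0.35. Top2a had 45 and 13 UMIs and Hmgb2 61 and 17, and at least 5 UMIs over the whole list were found in 19 of 61 Mlkl-null (31.1%, 19.9% to 44.3%) and 11 of 97 Casp8-mutant members (11.3%, 5.80% to 19.4%). Depth differs between the members. All 4 genes stood at or above the members' level in Mlkl-null haemoglobin barcodes, where red cells' own RNA was not separated from free RNA. Of 3 measured stem cell genes, Sox4 (20 and 4 UMIs) and the transporter Slc12a2 (41 and 5) were lower and Rnf43 (16 and 13) neither. Immediate-early and heat shock genes, which report handling stress, were higher in 3 of 10 (Junb 2.28-fold, Dnajb1 and Hspa1a) and lower in 0, and Fos stood at 1038 and 1175 CPM.

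**Figure D4:**
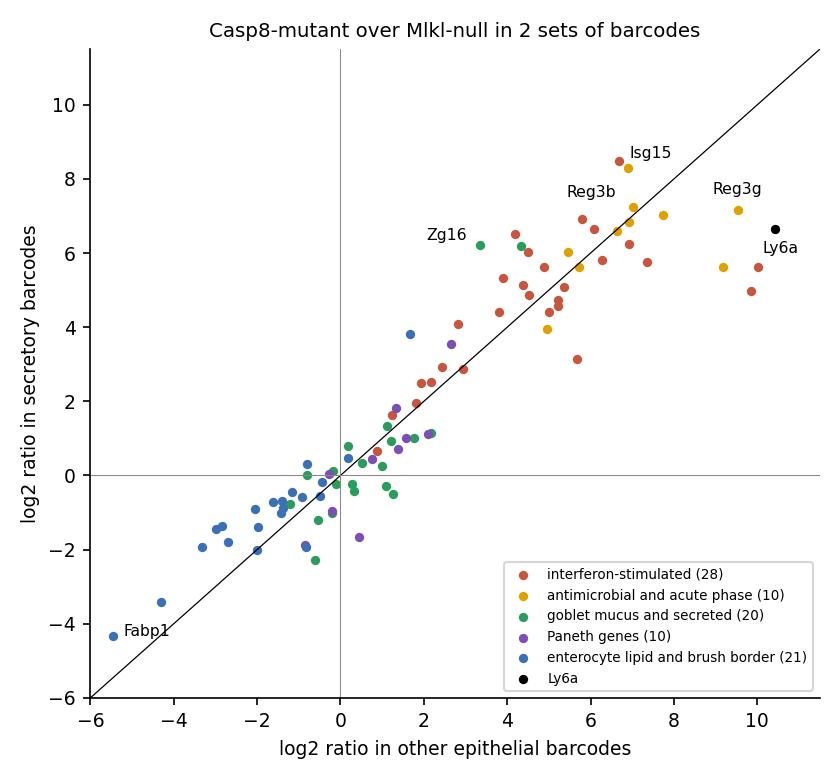
Log2 ratio of Casp8-mutant over Mlkl-null in secretory barcodes (vertical) against other epithelial barcodes (horizontal), 1 point per gene measured in both, coloured by list, with the line of equal ratios. Zg16 lies above the line (6.21 and 3.36) and Ly6a below it (6.64 and 10.42).

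Set beside other epithelial barcodes of the same libraries, the interferon, antimicrobial and enterocyte lists took the same direction, as the plot of both ratios shows; the difference between the sets was not tested with 1 library each. Interferon-stimulated genes had medians of 4.92 in members and 4.71 in other epithelium over the same 28 genes, and antimicrobial genes 6.72 and 6.91 over the same 10. Goblet genes measured in both, the genes of the selection rule included, had medians of 0.06 and 0.42 over 20 genes. Enterocyte genes had medians of -0.91 and -1.42, with 18 of 21 ratios larger in members. The directions parted for the proliferation list, at -1.10 in members and 0.88 in other epithelium over the same 6 genes, with 0 of 6 ratios larger in members, and for secretory transcription factors, at -0.54 and 0.63 over 11 genes. Medians near 0 also differed in sign for inflammasome genes (0.16 and -0.23) and immediate-early genes (0.25 and -0.08). Zg16 had 108 UMIs (22.2 CPM) in Mlkl-null and 228 CPM in Casp8-mutant other epithelial barcodes, a 10.3-fold difference, and Sprr2b was 6.63-fold higher there against 39.0-fold in members.

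**Figure D5:**
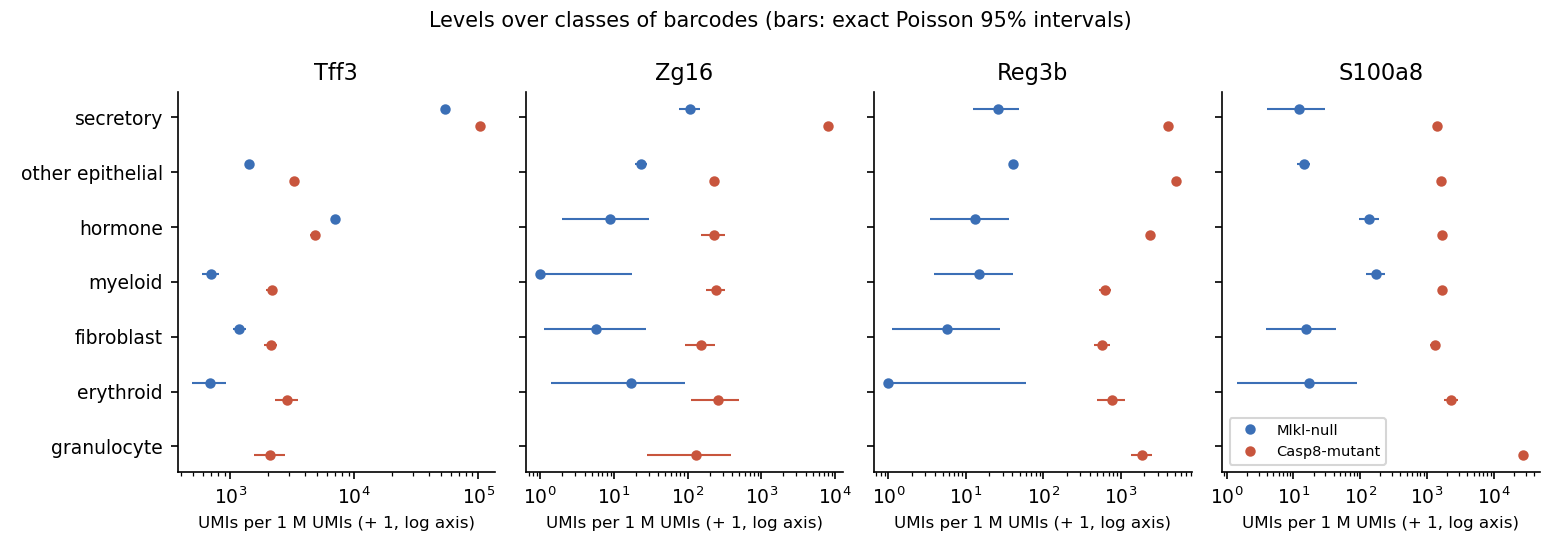
Level of Tff3, Zg16, Reg3b and S100a8 in CPM (plus 1, log axis) across barcode classes of each library; points are values summed over a class and bars are exact Poisson 95% intervals. Tff3 and Zg16 peak in secretory barcodes, and S100a8 peaks in granulocyte barcodes (27574 CPM).

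RNA of other cell types moved with the groups. The summed level of 5 erythroid genes was 2599 and 10471 CPM in members, of 6 myeloid genes 128 and 478, of 12 enteroendocrine genes 4048 and 6321, and of 5 pancreatic acinar genes 381 and 73.0. In other epithelial barcodes the same sums were 3085 and 10199.6, 125 and 454, 1245 and 1984, and 1944 and 320 CPM, so the erythroid and myeloid sums were close between members and other epithelium of the same library. Of the lymphoid markers Cd3e, Cd3g and Nkg7 were at 0 in the members of both libraries, and of the tuft markers Dclk1, Trpm5, Pou2f3 and Rgs13. Restricting the members to those with few UMIs of other cell types kept 61 of 61 in Mlkl-null and 5 of 97 in Casp8-mutant. Under that restriction 2993 genes reached the minimum UMI count, in place of 4526. Fewer genes of each list were therefore measured. The antimicrobial median was 6.26, which is also the log2 ratio of Reg3b alone, and the interferon median was 1.92. Because the gene sets differ, these medians cannot show whether a list as a whole held or fell.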

How the data were processed

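The data were droplet single-cell RNA-seq libraries (10x Genomics 3′ end chemistry, version 2) of dissociated intestine, 1 embryo per genotype, with about 10000 cells loaded each and per the labels a papain dissociation of 30 minutes. The authors deposited raw UMI counts per gene and barcode. Cell Ranger 3.0.2, Seurat 3.0 and the mm10 build are named in the submitters' processing notes, with roles not given in the sources used here. Of 52636 gene identifiers 52489 were given a symbol from GENCODE M21.

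Counts were used as deposited. UMIs were summed over barcodes of a library and class and divided by the class total, with 0.5 UMI added in ratios, a conditional exact binomial 95% interval for ratios, exact Poisson intervals for levels and Clopper-Pearson intervals for shares. All of these cover counting error only. Genes needed 20 UMIs over both libraries and were called by size at 2-fold with an interval leaving out 1. Other epithelial barcodes needed 3 UMIs over 6 keratin and junction genes. The named genes were the 12 higher and 12 lower ones with the interval bound farthest from 1, at least 50 UMIs and at least 100 CPM in either library, leaving out mitochondrial, ribosomal, haemoglobin, sex-linked, predicted and rule genes and those under 25% of their level in a non-epithelial class of at least 20 barcodes. The granulocyte class had 15 barcodes and so removed none. Values of 1 of the lower genes are not reported here. The members, lists and named rule were chosen with earlier results of these data known. Scrublet called 4 and 2 doublets, 0 of them members, a share too small to show that the caller worked. Thinning drew 1000 UMIs per barcode and left out shallower ones. Python 3.11.15, numpy 2.4.6, scipy 1.17.1, pandas 2.3.3, scanpy 1.11.5 and matplotlib 3.10.9 were used, and the ratio and call steps were tested on simulated data. Alternatives changed the selection thresholds, depth, scaling, added UMI and call rule, and 3 more were chosen after seeing the data: without members at 20 or more Zg16 UMIs, scaling without ribosomal protein genes, and without the deepest 10% of members.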

Additional observations from a re-analysis of the deposited data

Results flagged for a closer look

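Sox9 and Top2a had ratios of opposite sign in secretory barcodes and in other epithelial barcodes of the same libraries, each beyond 2-fold with an interval that left out 1. The log2 ratio of Casp8-mutant over Mlkl-null for Sox9 was -1.86 in secretory barcodes (71 and 16 UMIs, 198 and 53.1 CPM) and 1.23 in other epithelial barcodes (182 and 143 UMIs, 37.4 and 87.5 CPM). For Top2a it was -1.50 in secretory barcodes (45 and 13 UMIs, 125 and 43.2 CPM) and 1.24 in other epithelial barcodes (343 and 271 UMIs, 70.5 and 166 CPM). With 1 library per genotype the difference between the sets was not tested. Top2a also stood at 425 and 718 CPM in haemoglobin barcodes, above the members. Those barcodes can hold red cells, whose own Top2a RNA cannot be told apart from free RNA there. The part of free RNA in the result was not tested.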

How the results depend on the processing

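Against 352 higher and 864 lower genes, thinning every barcode to 1000 UMIs gave 105 and 134, scaling by the median of ratios 538 and 408, a minimum of 50 UMIs 154 and 336, and the members with few UMIs of other cell types 75 and 41, with only 5 Casp8-mutant members left. A Tff3 plus Spink4 threshold of 5% gave 507 lower genes. In the members with few UMIs of other cell types 2993 genes reached the minimum UMI count, against 4526 in all members. The median log2 ratio was -1.04 for Paneth genes (0.46 before), 1.92 for interferon-stimulated genes (4.92) and 0.18 for enterocyte genes (-0.91). Each of these medians covers fewer genes than the value in parentheses, so the pairs do not give a change in the same genes. Snord118 reversed to 0.44. The cause was not tested. Scaling by the median of ratios gave -0.56 for enterocyte genes. The secretory share of Mlkl-null was 6.18% at a threshold of 1% and 2.85% at 5%, and that of Casp8-mutant 14.5% at 1% and 13.6% with at least 1000 genes. The Casp8-mutant share of members with defensin UMIs was 74.2% at 1 UMI, 38.1% at 10 and 47.4% after thinning. Zg16 was 6.21 on the log2 scale, 4.89 with at least 1000 genes and 2.58 without its 25 high members. The 24 named genes kept their sign in 383 of 384 values over 16 settings, but 23 values fell outside the gene's counting interval. In the members with few UMIs of other cell types Reep6 stood at -0.04 on the log2 scale (-3.11 before), Pdcd4 at -1.06 (-3.09), Lct at -1.20 (-3.42) and Gstm1 at -1.22 (-3.16). These values rest on few or no UMIs in the 5 Casp8-mutant members and on the 0.5 UMI added. They are floor values and give no size of the difference. No paired analysis was possible because there was 1 embryo per group. The main limits are 1 embryo per genotype, the depth gap between the libraries and free RNA from other cells.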
